A study of Drosophila melanogaster with 12 samples.

Results

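Of the 14210 gene rows in the deposited FPKM tables, 10 were examined across the 12 libraries of the series: the genes of P-TEFb (Cdk9 and CycT), its inhibitor CG3508, and the elongation factors spt4, Spt5, Spt6, dre4, TfIIS, Su(Tpl) and lilli. They were taken by gene symbol, and all 10 were found, with 1 row each. FPKM scales fragments to transcript length and to the mapped fragments of the library, so levels of different genes can be set side by side.

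RNA polymerase II pauses shortly after it starts most genes of an animal. The pause is held by NELF and by DSIF, the dimer of Spt4 and Spt5, and is released when P-TEFb, the kinase Cdk9 with its partner cyclin T, phosphorylates DSIF, NELF and the tail of the polymerase. Hexim, together with a small nuclear RNA that Larp7 binds, keeps part of P-TEFb inactive, whereas the super elongation complex, built on the scaffold lilli (AFF4 in humans) and holding Su(Tpl) (ELL in humans), brings active P-TEFb to genes. Behind the pause, Spt6 and FACT (dre4 with Ssrp) handle nucleosomes around the moving polymerase, and TfIIS restarts arrested polymerases by letting them cut the RNA end.

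The study depleted barc, the Drosophila relative of the human factor Tat-SF1, in larval brain stem cells and in a cell line. Neuroblasts carried dicer2, asense-Gal4 and UAS-CD8::GFP, so that the asense promoter drove both the hairpin and the sorting marker. Controls were crossed to the empty landing site VIE-260B and knockdown animals to a barc RNAi line; both were kept at 29 °C and GFP-positive cells were sorted from brains late in the third instar, with 2 libraries a group. S2 cells, a line of embryonic origin with hemocyte features, took up double-stranded RNA against mCherry as the control or against barc over 7 days, with 4 libraries a group. Nothing in the labels says that libraries of a group came from separate animals or cultures, so p-values below reflect how these libraries scatter, which may be technical scatter.

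Depth estimated from the deposited confidence bounds ran from 14.6 to 48.7 (in units of 1000000 fragments) over the libraries. The target itself fell from 90.2 ± 5.39 (SD, n = 2) to 16.5 ± 2.02 FPKM (SD, n = 2) in neuroblasts and from 22.1 ± 1.39 (SD, n = 4) to 4.46 ± 1.99 FPKM (SD, n = 4) in S2 cells. The barc span overlaps that of rgn on the other strand by 3679 bases. In S2 cells rgn had means of 159 FPKM in controls and 203 after knockdown. No source used here states a strand setting for the counting, so the S2 values of barc may hold reads of rgn. All 7 neuroblast markers had a mean of at least 1 FPKM in the sorted cells, where they summed to 1518 to 1669 FPKM. In S2 cells they summed to 48.9 to 63.0 FPKM in controls and 53.5 to 76.8 after knockdown. There only brat and insc reached a mean of 1 FPKM, and ase was at 0 in every control. From S2 controls to knockdown, mean brat went from 55.9 to 42.1 FPKM and mean insc from 1.80 to 22.8 FPKM. All 7 hemocyte markers reached a mean of 1 FPKM in S2 cells, summing to 324 to 427 FPKM in controls and 460 to 504 after knockdown, against 32.4 to 40.0 in the sorted cells. From S2 controls to knockdown, mean Hml went down from 3.24 to 2.18 FPKM and mean Pxn from 4.97 to 2.20, while the other 5 went up. In the sorted cells the 6 glial markers summed to 199 to 204 FPKM in controls and 121 to 135 after knockdown. Only nrv2 and Eaat1 of these reached 1 FPKM, and their means fell from 124 to 88.6 and from 76.0 to 38.9 FPKM. Means of repo, which defines glia, were 0.078 in controls and 0.168 FPKM after knockdown, and those of Gs2 0.264 and 0.430. Means of gcm went from 0.348 to 0.172 FPKM and those of moody from 0.051 to 0.031. The 6 neuronal markers summed to 37.2 to 38.6 FPKM in controls and 45.6 to 46.2 after knockdown, with 3 of them at 1 FPKM or more. Of these 3, elav rose from 23.0 to 28.9 FPKM and fne from 7.81 to 12.2, whereas Appl fell from 6.38 to 4.17. The part of these markers in the results below was not tested.

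Cdk9 was the member that moved most. Its mean FPKM was lower by more than 2-fold after barc knockdown in sorted neuroblasts and again in S2 cells, while its partner CycT was not lower in either. In neuroblasts Cdk9 (FBgn0019949) held 33.9 and 33.7 FPKM in controls and 15.5 and 14.6 FPKM after knockdown. In S2 cells the controls held 30.04, 27.0, 22.7 and 25.6 FPKM, and the knockdown libraries 12.1, 13.3, 10.9 and 12.6 FPKM. In each system every knockdown library lay below every control, with a wide gap between the groups, and each value rested on about 297 to 1591 fragments.

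**Figure D1:**
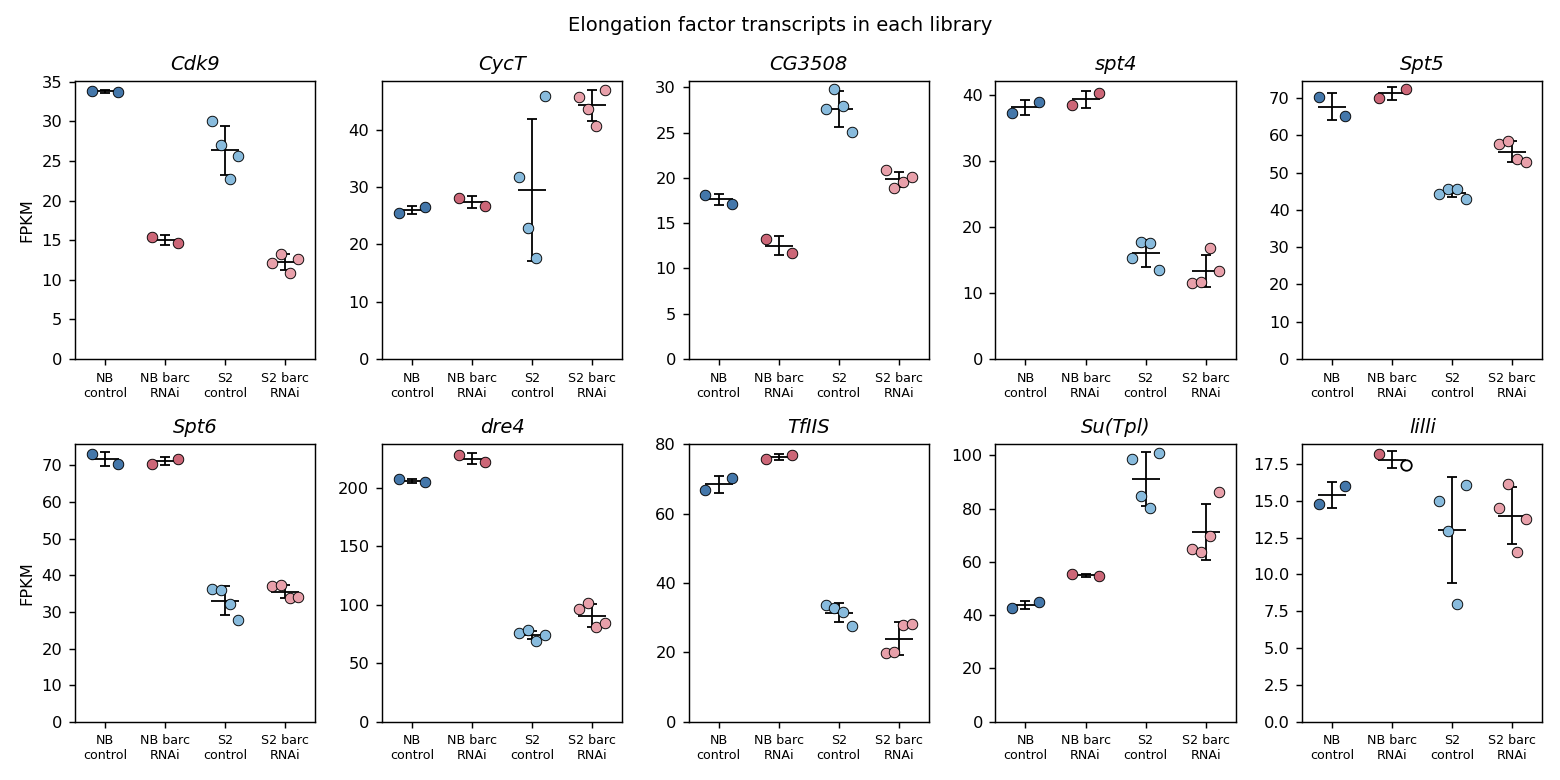
FPKM of the 10 genes in each library, 1 panel a gene, with the 4 groups along the horizontal axis, points for libraries and bars for the group mean and SD; the open circle is a library whose estimate failed (lilli). In the Cdk9 panel the knockdown libraries lie at 10.9 to 15.5 FPKM, below every control of both systems (22.7 to 33.9), whereas in the CycT panel they do not lie below the controls.

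On the log2(FPKM + 1) scale Cdk9 fell by 1.12 in neuroblasts (SE 0.061, limma, Benjamini-Hochberg adjusted p = 5.3e-06) and by 1.04 in S2 cells (SE 0.12, adjusted p = 9.2e-04). In this bulk RNA, fewer cells of a type and less RNA per cell cannot be told apart. The tests adjusted over all genes called 42.9% of the 6732 genes tested in neuroblasts (19.1% higher, 23.8% lower) and 26.7% of the 7603 tested in S2 cells (11.5% higher, 15.2% lower), so that a call alone sets a gene little apart. Against that background 17 of the 6298 genes tested in both systems (0.27%) were called and lower by at least 2-fold in each, and Cdk9 was one of them, as was barc. The same limit taken in neuroblasts alone held 66 genes (0.98%) and in S2 cells alone 345 (4.54%).

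No difference in the size of the Cdk9 change between the 2 systems was resolved. The difference between the 2 effects was -0.08 (SE 0.17, 95% interval -0.45 to 0.30, limma adjusted p = 0.836). The authors' deposited table of DESeq comparisons gives Cdk9 a log2 ratio of -1.04 in neuroblasts (adjusted p = 1.58e-28) and -1.04 in S2 cells (adjusted p = 0.00309); it calls 28.1% and 16.7% of its genes. Within S2 replicates 1 and 2, which share a first number in their labels, the change was -1.11, and within replicates 3 and 4 it was -0.98. Cdk9 passed the test in both systems under every alternative that was run. Among the genes with a mean of at least 1 FPKM in a group, Cdk9 stood above 58.4% of 6709 in control neuroblasts and above 34.8% of 6791 after knockdown. In S2 cells it stood above 53.8% of 7493 and above 31.4% of 7699.

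CycT (FBgn0025455), the cyclin that P-TEFb needs for its activity, held 25.5 and 26.4 FPKM in control neuroblasts and 28.05 and 26.6 FPKM after knockdown. These groups lay next to each other, and the change of 0.07 did not pass the test (limma adjusted p = 0.374). In S2 controls it held 31.7, 22.8, 17.5 and 45.9 FPKM, and in knockdown libraries 45.7, 43.6, 40.7 and 46.9 FPKM. Here 3 controls lay below every knockdown library, while control replicate 4 lay among them.

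The S2 change of CycT was 0.66 (SE 0.25, 95% interval 0.08 to 1.23, limma adjusted p = 0.0858) and so missed the threshold of 0.05. It passed with the replicate number as a block (adjusted p = 0.0363), not with the first label number as a block (adjusted p = 0.0627), and it passed without control replicate 4 (0.89, adjusted p = 0.0114). The authors' deposited table gives CycT a log2 ratio of 0.56 in S2 cells with an adjusted p of 0.0438.

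The balance of kinase and cyclin transcripts shifted with knockdown. The ratio of Cdk9 to CycT FPKM was 1.33 and 1.28 in control neuroblasts and 0.551 and 0.549 after knockdown. In S2 cells it ranged from 0.559 to 1.30 over the controls and from 0.266 to 0.304 over the knockdown libraries. In neither system did the groups overlap. Against Cdk12, a second kinase of the polymerase tail, the ratio of Cdk9 went from 1.00 ± 0.00779 (SD, n = 2) to 0.454 ± 0.017 (SD, n = 2) in neuroblasts and from 1.10 ± 0.063 (SD, n = 4) to 0.473 ± 0.044 (SD, n = 4) in S2 cells. Cdk12 itself went from 33.7 to 33.1 FPKM and from 23.9 to 25.9 FPKM, and its change passed the test in neither system. These ratios are descriptions of transcript levels, not of protein.

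**Figure D2:**
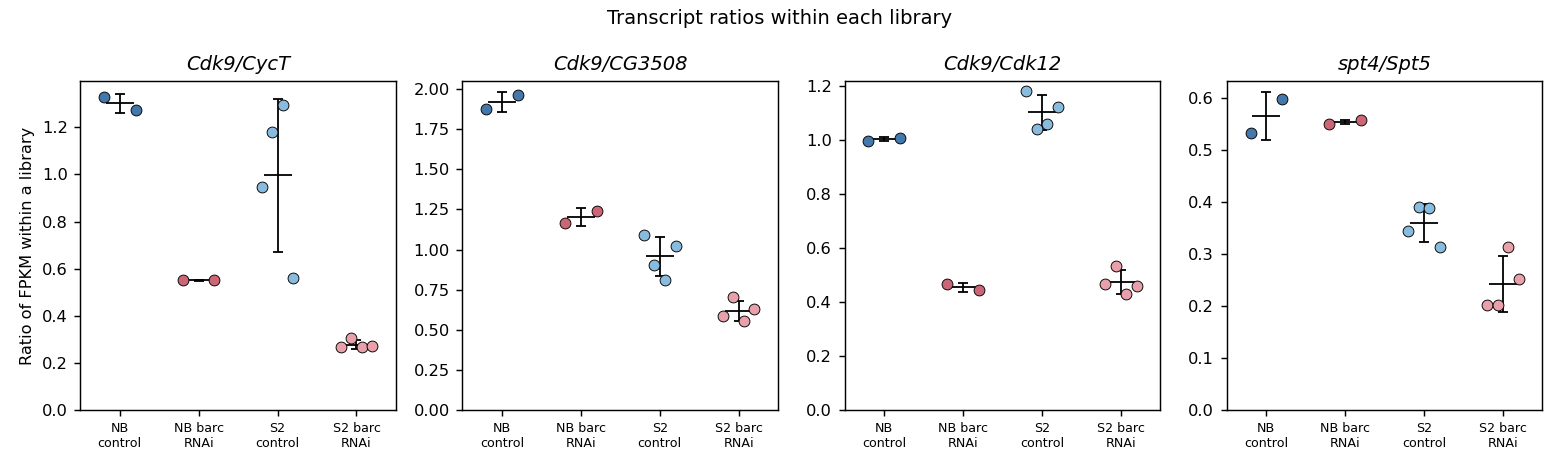
Ratio of the FPKM values of 2 genes in each library (vertical axis, no unit), 1 panel a pair, with points for libraries and bars for the group mean and SD. Cdk9 to CycT lies at 1.28 to 1.33 in control neuroblasts against 0.549 to 0.551 after knockdown, and Cdk9 to Cdk12 shows a like separation in both systems.

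CG3508 (FBgn0038251), named Hexim in the release 6 annotation and thus the gene of the P-TEFb inhibitor, was also lower in both systems, by less than Cdk9. It held 18.1 and 17.2 FPKM in control neuroblasts and 13.3 and 11.8 FPKM after knockdown. In S2 controls it held 27.6, 29.8, 27.99 and 25.03 FPKM and in knockdown libraries 20.9, 18.9, 19.5 and 20.1 FPKM. Every knockdown library lay below every control of its system.

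CG3508 fell by 0.46 in neuroblasts (SE 0.077, limma adjusted p = 0.0017) and by 0.45 in S2 cells (SE 0.096, adjusted p = 0.0113). The 2 effects differed by -0.01 (95% interval -0.32 to 0.30). The authors' deposited table gives log2 ratios of -0.49 (adjusted p = 2.41e-05) and -0.44 (adjusted p = 0.2996), so the S2 change is not called there. After rescaling to TPM, in which each library sums to the same total, the S2 change was -0.34 and missed the threshold (adjusted p = 0.0588), as did that within S2 replicates 3 and 4 (-0.40, adjusted p = 0.130). In neuroblasts a single fit over all 4 groups gave an adjusted p of 0.0641. Cdk9 and CG3508 were the members lower in both systems; over all genes tested in both, 7.15% were called lower in each. The ratio of Cdk9 to CG3508 still went down, from 1.92 to 1.20 in neuroblasts and from 0.958 to 0.617 in S2 cells.

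Of the 2 DSIF genes, the large subunit was called higher in S2 cells by limma only, and the small one was called in neither system. spt4 (FBgn0028683), the small subunit, held 37.4 and 38.9 FPKM in control neuroblasts and 38.5 and 40.3 after knockdown, with no change past the test (0.05, limma adjusted p = 0.557). In S2 cells its controls ran from 13.4 to 17.7 FPKM and its knockdown libraries from 11.6 to 16.8, overlapping, with a change of -0.25 (adjusted p = 0.226). The spt4 span overlaps CG33671 on the other strand by 1879 bases, and no source used here states a strand setting for the counting, so its value may hold reads of both genes.

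Spt5 (FBgn0040273), the large DSIF subunit and itself a substrate of Cdk9, held 70.2 and 65.2 FPKM in control neuroblasts and 70.05 and 72.5 FPKM after knockdown, and these groups overlapped. In S2 controls it held 44.4, 45.5, 45.5 and 42.96 FPKM and in knockdown libraries 57.8, 58.4, 53.6 and 52.8 FPKM, with no overlap. It rose by 0.31 in S2 cells (SE 0.089, limma adjusted p = 0.0316), and the neuroblast change was 0.07 (adjusted p = 0.332; 0.17 on TPM, adjusted p = 0.0343). The S2 call did not hold without control replicate 1, 2 or 3 or knockdown replicate 1 or 2, with adjusted p-values of up to 0.102, nor within replicates 3 and 4 (0.26, adjusted p = 0.244). The authors' deposited table does not call Spt5 in S2 cells (log2 ratio 0.35, DESeq adjusted p = 0.355). The ratio of spt4 to Spt5 was 0.565 and 0.553 in control and knockdown neuroblasts and 0.359 and 0.242 in the S2 groups.

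Neither histone chaperone among the members passed the test in either system. Spt6 (FBgn0028982) held 73.1 and 70.4 FPKM in control neuroblasts and 70.4 and 71.9 after knockdown, and in S2 cells 27.8 to 36.1 FPKM in controls and 33.9 to 37.3 after knockdown. Its changes of -0.01 and 0.11 did not pass the test in either system. dre4 (FBgn0002183), the large FACT subunit (Spt16 in yeast and humans), was the most abundant member in neuroblasts, at 207 and 204 FPKM in controls and 228 and 221 FPKM after knockdown. In S2 cells it held 75.6, 78.2, 69.3 and 73.6 FPKM in controls and 96.2, 101, 81.3 and 83.96 FPKM after knockdown. Each knockdown library of dre4 lay above each control of its system, but the changes of 0.13 (limma adjusted p = 0.063) and 0.28 (adjusted p = 0.0819) missed the threshold. With other scalings the neuroblast change of dre4 passed, at 0.23 on TPM (adjusted p = 0.0058) and at 0.19 after quantile normalisation (adjusted p = 0.0119). The S2 change passed after quantile normalisation too (0.39, adjusted p = 0.0308), and with the first label number as a block (adjusted p = 0.0239). The authors' deposited table calls dre4 in neither system (log2 ratios 0.13 and 0.35, DESeq adjusted p = 0.145 and 0.390).

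TfIIS (FBgn0010422), which rescues arrested polymerases, rose in neuroblasts by a margin that rests on every library, and was not called in S2 cells. In neuroblasts it held 66.7 and 70.2 FPKM in controls and 75.7 and 77.02 FPKM after knockdown, a rise of 0.16 (SE 0.054, limma adjusted p = 0.0445). That call did not hold when any 1 of the 4 libraries was left out, with adjusted p-values from 0.068 to 0.222. A single fit over all 4 groups, which called no member but Cdk9 in neuroblasts, did not make the TfIIS call either. In all, it was lost under 6 of 11 alternatives. The authors' deposited table does not make it (log2 ratio 0.15, DESeq adjusted p = 0.0783). In S2 controls it held 33.8, 32.8, 31.5 and 27.7 FPKM, and in knockdown libraries 19.8, 20.03, 27.8 and 28.3 FPKM. Replicates 1 and 2 of the S2 knockdown lay well below all controls, and replicates 3 and 4 lay within the lower end of the control range.

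The S2 change of TfIIS was accordingly -0.71 within replicates 1 and 2 and -0.07 within replicates 3 and 4, and -0.39 over all (limma adjusted p = 0.0805; 0.0443 with the first label number as a block). The labels do not say what their first number stands for. The difference between the neuroblast and S2 effects of TfIIS was 0.55 (adjusted p = 0.178).

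Su(Tpl) (FBgn0014037), the ELL of Drosophila, speeds the polymerase as part of the super elongation and little elongation complexes. It held 42.6 and 44.8 FPKM in control neuroblasts and 55.3 and 54.5 FPKM after knockdown, without overlap. In S2 controls it held 98.6, 84.7, 80.2 and 101 FPKM, and in knockdown libraries 64.7, 63.6, 69.8 and 86.4 FPKM. Knockdown replicate 4 lay within the control range, and the other 3 below it.

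Su(Tpl) rose by 0.32 in neuroblasts (SE 0.055, limma adjusted p = 0.0020), a call that a single fit over all 4 groups did not keep (adjusted p = 0.491). In S2 cells its change was -0.36 (adjusted p = 0.0778), and -0.45 without knockdown replicate 4 (adjusted p = 0.0365). With the first label number as a block the S2 change passed (adjusted p = 0.0434), and it was -0.50 within replicates 1 and 2 and -0.21 within replicates 3 and 4. The difference between the 2 effects was the largest among the members, 0.68 (SE 0.20, 95% interval 0.25 to 1.11), with an adjusted p of 0.0714, and of 0.0264 without S2 knockdown replicate 4 (0.78). The authors' deposited table gives log2 ratios of 0.37 (adjusted p = 1.98e-07) and -0.29 (adjusted p = 0.531). The span of Su(Tpl) lies within that of Mi-2 on the same strand, so the 2 genes may share reads. Mi-2, a chromatin remodeller, rose from 114 to 148 FPKM in neuroblasts and from 37.6 to 57.6 FPKM in S2 cells.

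lilli (FBgn0041111), the scaffold of the super elongation complex, had the lowest mean of the members in both sets of controls. In neuroblasts it held 14.8 and 16.0 FPKM in controls and 18.2 FPKM in knockdown replicate 1, while the estimate of knockdown replicate 2 (17.4 FPKM) is marked as failed, and lilli was therefore not tested there. With that value kept, its change was 0.20 (limma adjusted p = 0.0480), and without that library it was 0.23. DESeq in the authors' deposited table calls lilli higher in neuroblasts (log2 ratio 0.20, adjusted p = 0.0133) and not in S2 cells (0.15, adjusted p = 0.8385). In S2 cells its controls ran from 7.97 to 16.1 FPKM and its knockdown libraries from 11.5 to 16.1 FPKM, overlapping throughout, with a change of 0.13 (adjusted p = 0.664).

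Counted over the members, 4 of 9 tested were called in neuroblasts, with Cdk9 and CG3508 lower and TfIIS and Su(Tpl) higher, beside 42.9% of all genes. In S2 cells 3 of 10 were called, with Cdk9 and CG3508 lower and Spt5 higher, beside 26.7% of all genes. Both shares lie near the background and show nothing about the members as a set. Their median change was 0.07 in neuroblasts and -0.07 in S2 cells, against -0.015 and -0.06 over all genes tested. Rescaling to TPM turned the neuroblast count to 4 higher and 2 lower and the S2 count to 1 higher and 1 lower. That scaling also moved the share of higher calls over all genes from 44.4% to 66.5% in neuroblasts and from 43.2% to 53.3% in S2 cells, and it shifted the S2 median of all genes by 0.118. On TPM Cdk9 fell by 1.04 in neuroblasts and by 0.94 in S2 cells, so that its S2 fall was short of 2-fold on that scaling. No member was called in the test of a difference between the 2 systems by limma (0 of 9, 2 at an unadjusted p under 0.05), which called 5.76% of all genes (22.1% at an unadjusted p under 0.05).

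**Figure D3:**
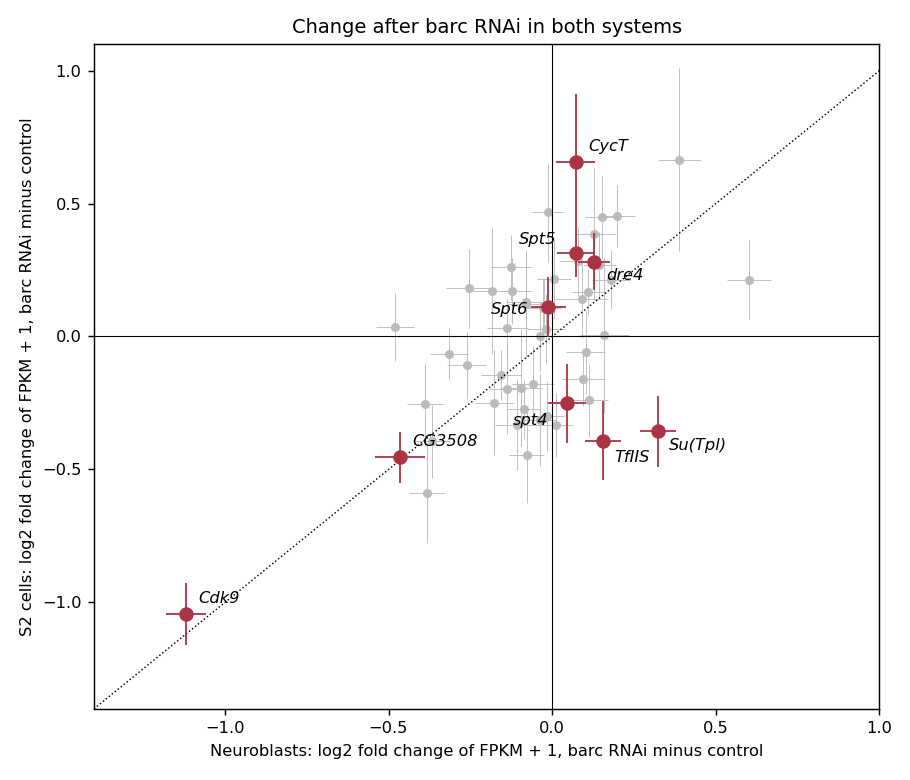
Change after barc knockdown in neuroblasts (horizontal axis) and S2 cells (vertical axis), both as differences in log2(FPKM + 1), for the tested members (red) and the other elongation and polymerase genes (grey); bars are standard errors and the dotted line marks equal change. Cdk9 stands alone at -1.12 and -1.04, CG3508 lies nearer the centre at -0.46 and -0.45, and Su(Tpl) lies at 0.32 and -0.36.

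The other listed genes of the machinery moved less than Cdk9. Ssl1, a subunit of TFIIH outside that list, fell by more (-1.38 in neuroblasts and -1.41 in S2 cells). Of 44 other genes of elongation and of polymerase II itself, 15 were called in neuroblasts (34.1%; 6 higher, 9 lower) and 2 in S2 cells (4.55%; 1 higher, 1 lower; 5 with the replicate number as a block), with median changes of -0.04 and 0.03. Over all genes 42.9% and 26.7% were called, so both shares lie below the background, that in S2 cells far below. On TPM the neuroblast split was 13 higher and 6 lower. None of the 44 was called in the limma test of a difference between the systems, which called 5.76% of all genes.

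Of the regulators of P-TEFb, 3 of 3 were called by limma in neuroblasts, where 42.9% of all genes were called. CG42569, the Drosophila Larp7, which binds the inhibitory RNA, went from 31.7 to 22.5 FPKM, a fall of 0.48 on the log2 scale. bin3, relative of the human enzyme that caps that RNA, went from 30.1 to 24.9 FPKM and fell by 0.26. fs(1)h, the BET protein of Drosophila, rose by 0.14, close to the threshold (limma adjusted p = 0.0490). It is not called in the authors' deposited table (log2 ratio 0.09, DESeq adjusted p = 0.327), which calls CG42569 and bin3 lower. In S2 cells CG42569 stood at 8.74 and 8.91 FPKM and bin3 at 41.6 and 38.8 FPKM, and neither was called.

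Ssrp, the FACT partner of dre4, rose in neuroblasts from 199 to 261 FPKM (0.39). Its S2 means were 82.2 ± 23.5 (SD, n = 4) and 138 ± 62.8 FPKM (SD, n = 4), with overlapping libraries (55.3 to 104 and 82.5 to 194 FPKM). This change was not called by limma, whereas the authors' deposited table calls it (log2 ratio 0.86, adjusted p = 0.00807). The ratio of dre4 to Ssrp was 0.505 and 0.523 in S2 knockdown replicates 1 and 2 and 0.963 and 1.02 in 3 and 4. In S2 controls it was 0.725 and 0.787 in replicates 1 and 2 and 0.994 and 1.33 in 3 and 4. EloA, the elongation-active subunit of Elongin, rose in neuroblasts from 24.3 to 37.4 FPKM (0.60), the largest rise among the 44, with S2 means of 18.3 and 21.5 FPKM. None of the 4 NELF genes, the 4 other genes of the super and little elongation complexes or the 5 Paf1 genes was called in neuroblasts.

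The polymerase tail kinases with their partners, the tail phosphatases and Set2 make up 8 listed genes. Of these, 3 were called in neuroblasts (37.5%, beside 42.9% of all genes), all lower. They were Cdk7 (-0.18) and CycH (-0.37), kinase and cyclin of TFIIH, and Set2 (-0.26), the H3K36 methyltransferase that follows the phosphorylated tail. Cdk7 is not called in the authors' deposited table (DESeq adjusted p = 0.184). Among the 12 polymerase II subunits 6 were called in neuroblasts, a share near that of all genes, so the count says nothing about the complex. By limma, RpII215 (0.15) and RpII140 (0.20) were called higher, and Rpb5 (-0.39), Rpb7 (-0.38), RpII15 (-0.31) and Rpb11 (-0.18) lower. The authors' deposited table of DESeq comparisons calls RpII140, Rpb5 and RpII15 in the same directions. It does not call RpII215 (adjusted p = 0.124), Rpb7 (adjusted p = 0.0923) or Rpb11 (log2 ratio 0.08, adjusted p = 0.463). It calls the small subunit Rpb12 higher (0.23, adjusted p = 0.00675). The 2 genes called in S2 cells by limma were from the same complex and moved the same way as in neuroblasts. RpII140 went from 64.8 to 89.3 FPKM (0.45, limma adjusted p = 0.0231) and Rpb7 from 39.0 to 25.6 FPKM (-0.59, adjusted p = 0.0470). The authors' deposited table calls neither in S2 cells (DESeq adjusted p = 0.155 and 0.452). TfIIFbeta was the remaining limma call in neuroblasts (0.18), and the authors' deposited table does not make it (DESeq adjusted p = 0.0543).

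**Figure D4:**
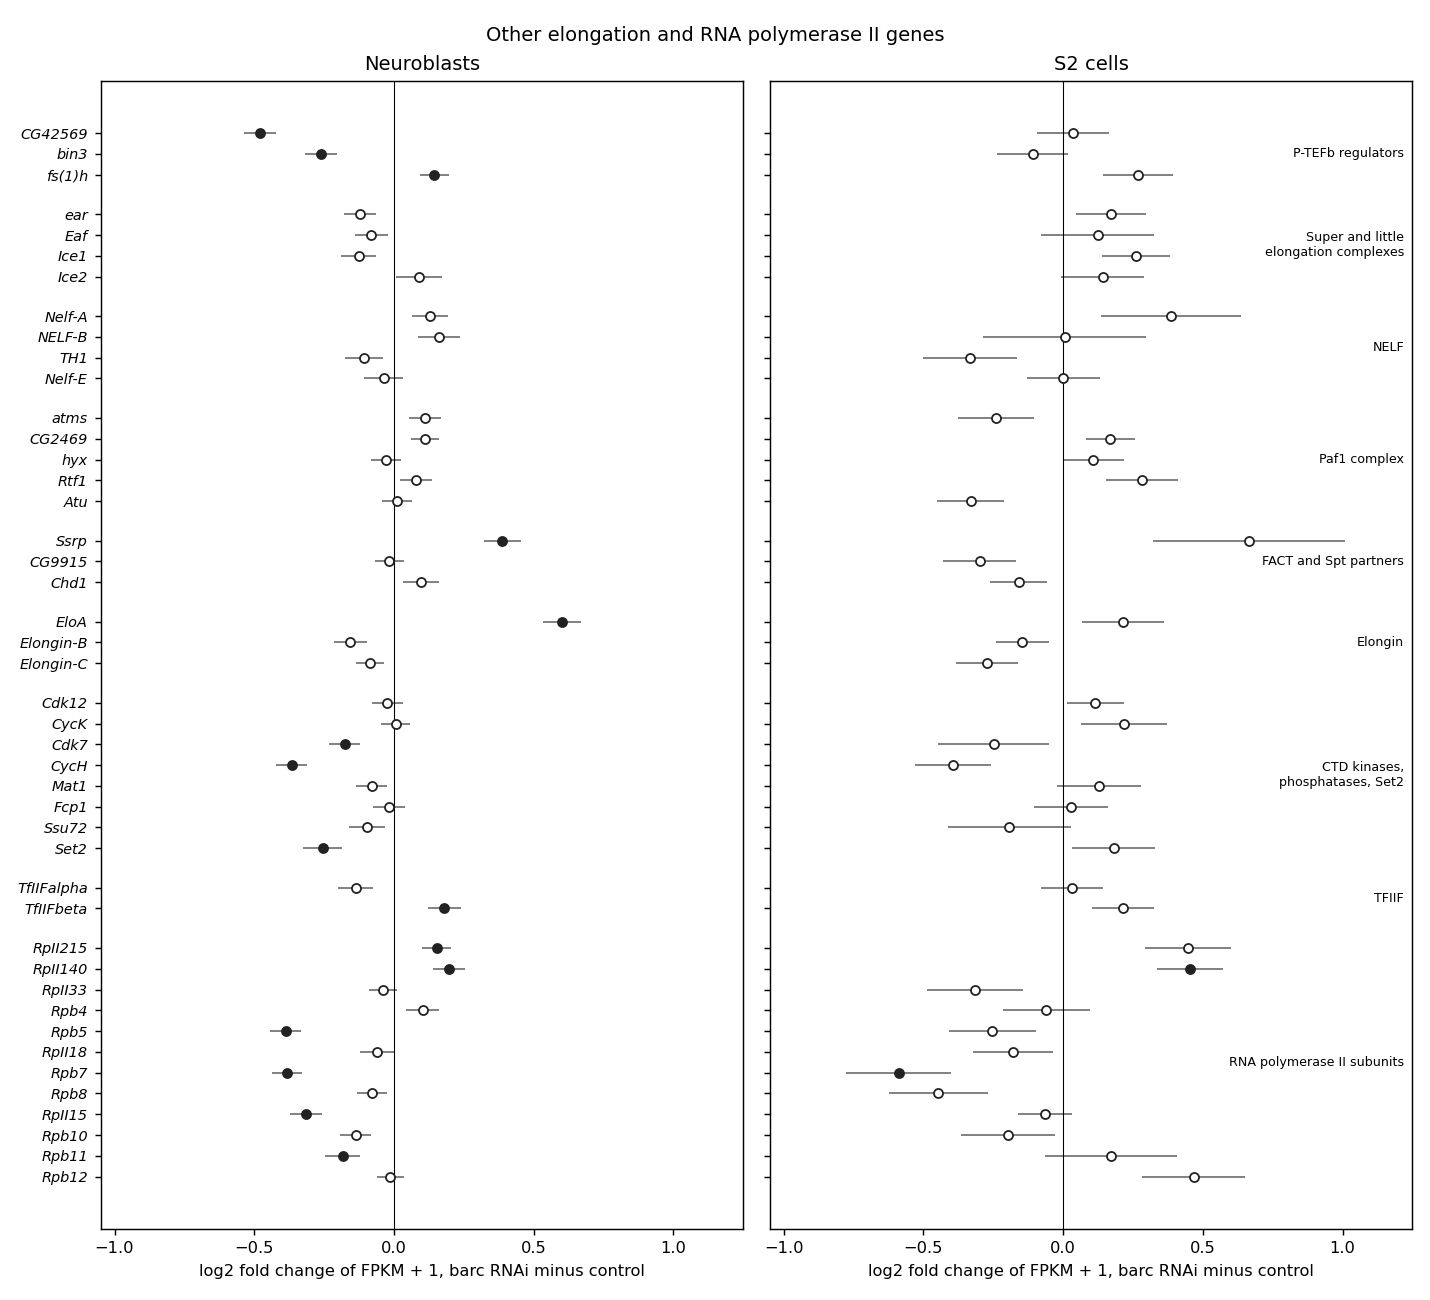
Change after barc knockdown, as a difference in log2(FPKM + 1), for the other elongation and polymerase II genes in neuroblasts and in S2 cells; bars are standard errors and filled points have an adjusted p under 0.05. In neuroblasts filled points lie on both sides of 0, from EloA at 0.60 to CG42569 at -0.48; in S2 cells RpII140 and Rpb7 are filled.

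Before knockdown, the members' levels followed a different order in the 2 systems. In control neuroblasts dre4 (206 FPKM) stood far above Spt6 (71.7), TfIIS (68.5) and Spt5 (67.7), of which TfIIS and Spt5 overlapped, and CycT (25.9), CG3508 (17.6) and lilli (15.4) came last. In S2 controls Su(Tpl) led with 91.1 FPKM, ahead of dre4 (74.2) and Spt5 (44.6). Spt6, TfIIS, CycT, CG3508 and Cdk9 followed between 33.0 and 26.3 FPKM with overlapping libraries, and spt4 (16.0) and lilli (13.0) closed the order and overlapped as well. After knockdown Cdk9 was the lowest of the 10 in S2 cells, at 12.2 FPKM, and ninth in neuroblasts.

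**Figure D5:**
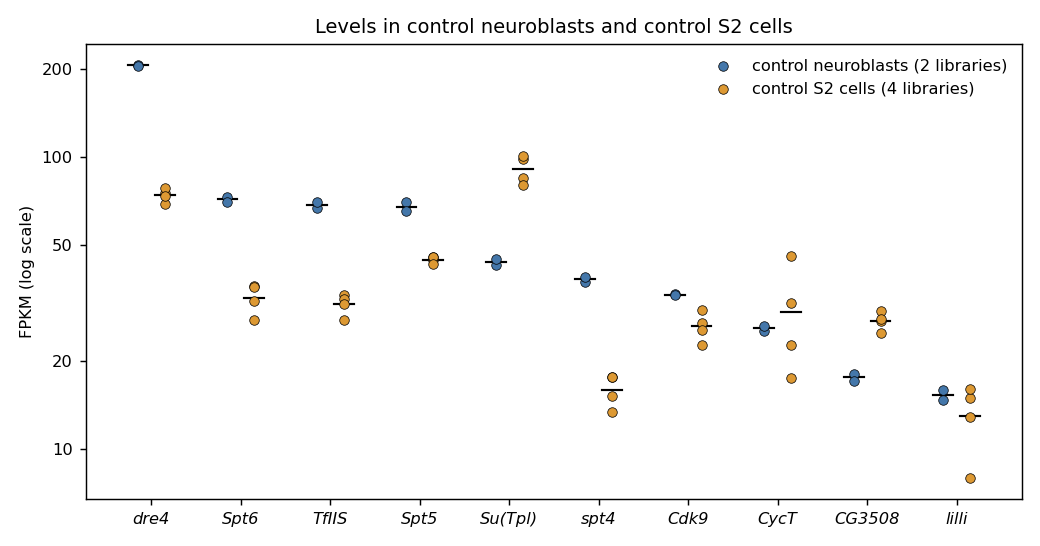
FPKM of the members in control neuroblasts and control S2 cells (logarithmic axis), with points for libraries and bars for group means. dre4 stands highest in neuroblasts at 206 FPKM and Su(Tpl) in S2 cells at 91.1 FPKM.

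Between the 2 kinds of control, 8 of 9 members tested were called (6 higher and 2 lower in neuroblasts), beside 77.3% of all genes (37.1% higher, 40.2% lower). dre4 was higher in neuroblasts by 1.46 and spt4 by 1.21, and Su(Tpl) was lower by 1.04 and CG3508 by 0.62. The exception was CycT (-0.09, limma adjusted p = 0.778). Cdk9 was higher by 0.35 (adjusted p = 0.019), a call lost without neuroblast control replicate 1 (adjusted p = 0.0899) or 2 (0.0835). Of the 44 other genes 39 were higher in neuroblasts and 2 lower, with a median of 0.96. Cell type, culture and library kit differ together between these groups and cannot be told apart, and quantile normalisation shifts the median of all genes by 0.267.

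The genes whose log2(FPKM + 1) followed Cdk9 most closely over the 12 libraries, among 6297 genes, were Ssl1 (Pearson r = 0.967), CG2818 (r = 0.960) and CG33332 (r = 0.955). These libraries share their groups, so the values describe likeness only. Ssl1, a subunit of TFIIH, went from 45.8 to 16.9 FPKM in neuroblasts and from 36.1 to 12.7 FPKM in S2 cells. CG2818 changed by -0.79 and -1.04 and CG33332 by -1.23 and -1.48. The span of CG2818 overlaps lectin-24A, and that of CG33332 overlaps CycC and CG33331.

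In structure the member that fell most is small. In the release 6 annotation Cdk9 has 3 introns of 59 to 68 bases. spt4 (61 to 66 bases) and TfIIS (66 bases) also have short introns only, whereas the introns of CG3508 run from 64 to 161 bases and those of Spt5 from 54 to 373. Su(Tpl) and lilli hold introns of up to 11838 and 60575 bases. Across the members, intron length and the change after knockdown were not tested against each other. By the coordinates in the deposited tables, whose build the tables do not name, Cdk9 spans 2R:18523568-18525228, CycT 3L:17545613-17550888, CG3508 3R:10485163-10486899, Spt5 2R:15324991-15329403, TfIIS 2L:15058919-15060753 and Su(Tpl) 3L:19884505-19902500.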

How the data were processed

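The authors deposited 1 FPKM table a library and 2 tables of their own comparisons. Per the labels' protocols, libraries were made from polyA RNA with a strand-specific dUTP method, with a manual KAPA kit for neuroblasts and a robot-run NEB kit for S2 cells. The submitters' processing notes name Cufflinks 1.3.0, TopHat 1.4.1, BWA 0.6.1, DESeq and HTSeq, without settings or a genome build. The authors' comparison tables hold size-factor normalised mean signal per group, the ratio of the means, its log2 value and p-values; their neuroblast ratios were inverted here to read knockdown over control.

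Genes with a mean of at least 1 FPKM and no failed estimate were tested with limma 3.58.1 (R 4.3.3, variance trend over mean level) on log2(FPKM + 1), within each system, and in 1 fit over all 4 groups for the difference between systems and between controls. Adding 1 understates changes of low genes. P-values were adjusted over all genes tested, with 0.05 as the threshold. Symbols were matched without regard to case; 91.7 to 92.3% of fragment numbers recovered from the confidence bounds lay within 0.02 of a whole number. Intervals on single values cover counting error only. The fit was tested on simulated data.

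Same-numbered S2 control and knockdown libraries deviated together (correlations 0.4505 to 0.5881 over genes), but differently numbered libraries of 1 first label number did so about as strongly (0.3256 to 0.6184, control 1 with knockdown 2 the highest), and those of different first numbers correlated negatively (-0.6059 to -0.3709). The correlations thus separate replicates 1 and 2 from 3 and 4 and do not show pairing within them. Fits with either number as a block are given where they changed a member's call. Alternatives were another pseudocount, no filter, rescaling to TPM, quantile normalisation, 1 fit over all groups, blocks and leaving out each library; keeping failed estimates was added after the data were seen. Other genes were named mainly where they passed the test, overlapped a member's span or correlated best with Cdk9, though not every overlapping gene is named. Cdk12 was named for its ratio to Cdk9, and bonsai and CG17807 as neighbours of Cdk9. Members and lists were chosen with earlier results of these data known. Sequences were not used here.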

Additional observations from a re-analysis of the deposited data

How the results depend on the processing

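Cdk9 passed the threshold in both systems under every alternative run. Of 584 member values under alternatives, 545 kept their side of the threshold, 20 gained and 19 lost a call, and 0 called values changed direction. Of the genes called in neuroblasts (2888), members (4) and other elongation genes (15), 1 fit over all groups left 208, 1 and 0; no filter left 8 of the 15. Leaving out 1 library gave 1847 to 2959, 3 to 4 and 8 to 12. In S2 cells (2030, 3 and 2), a block on the first label number gave 3496, 6 and 10; replicates 1 and 2 alone 5460, 8 and 27; replicates 3 and 4 alone 927, 1 and 0. One fit over all groups gave 7 members and 8 others; the others were 1 with no filter or on TPM and 4 after quantile normalisation. Leaving out 1 library gave 1104 to 2513 genes, 2 to 4 members and 0 to 7 others, the highest counts without S2 control replicate 4. For the difference between systems (443), no filter gave 692, and leaving out 1 library 108 to 996 genes and 0 to 1 members; between controls 7 to 8 members were called. With the replicate number as a block, 4 members and 5 others were called in S2 cells and 4 and 18 in neuroblasts, where the numbers do not pair the libraries (correlation 0.0673); apart from CycT this block changed no member's call; the block on the first number added dre4, TfIIS and Su(Tpl) in S2 cells. The cause of these shifts was not tested. With 2 libraries a group in neuroblasts, changes near 0.16 sit at the limit of what could be called.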

Other observations

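The neighbours of Cdk9 were looked at after its values were seen. bonsai, a mitochondrial ribosomal protein gene, lies head to head with Cdk9 on the other strand with 48 bases between the spans. It held 166 and 156 FPKM in control neuroblasts and 104 and 117 FPKM after knockdown, a fall of 0.54 (limma adjusted p = 3.7e-04). In S2 cells it held 26.1, 27.1, 26.5 and 28.5 FPKM in controls and 9.87, 8.87, 20.1 and 20.5 FPKM after knockdown, a fall of 0.92 (adjusted p = 0.0331). All knockdown libraries lay below the controls of their system, and S2 replicates 1 and 2 lay lower than 3 and 4. CG17807, 132 bases from Cdk9 on its strand, went from 12.7 to 14.6 FPKM in neuroblasts (0.19, adjusted p = 0.0432) and from 15.5 to 18.5 FPKM in S2 cells (0.24, adjusted p = 0.0999).

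CG3566, whose span overlaps that of Spt6 by 15 bases, fell by 0.78 in neuroblasts and by 1.45 in S2 cells, while Spt6 was not called in either.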
